A study of Homo sapiens with 24 samples.

Results

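Cyclins are the regulatory subunits of the cyclin-dependent kinases (CDKs), and 9 genes that encode cell cycle cyclins were followed here: the D-type genes CCND1, CCND2 and CCND3, the E-type genes CCNE1 and CCNE2, the A-type gene CCNA2, the B-type genes CCNB1 and CCNB2, and CCNF. They were taken by symbol from the 48162 genes of the count table, and each symbol matched 1 row. D-type cyclins bind CDK4 and CDK6 in G1 and respond to growth signals, E-type cyclins bind CDK2 at the entry into S phase, cyclin A2 serves S phase and G2, and the B-type cyclins bind CDK1 and drive entry into mitosis. Cyclin F, the protein of CCNF, binds no CDK and instead selects substrates for an SCF ubiquitin ligase. Most of these genes are transcribed in waves, the E-type genes through E2F factors and the A- and B-type genes through the DREAM and MYB-FOXM1 complexes, so that their mRNA in a bulk sample reflects which phases its cells occupy as well as the output of each cell.

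RNA-seq was made of PPC1 cells, a human prostate cancer cell line, in 4 conditions with 6 libraries each. Parental cells (UT) were plated on day 1 and harvested on day 5, and a second parental group (UT_LCL) received 5 µM LCL521, an inhibitor of acid ceramidase, for 5 hours before harvest. Polyploid giant cancer cells (PGCC) were made by irradiating the plates with 8 Gy on day 2 and were collected on day 5 as the cells that a size filter retained, and the PGCC_LCL group received LCL521 before the same collection. The whole experiment was run 6 times with the 4 conditions harvested in parallel, and libraries with the same number come from the same run. PGCC therefore differ from parental cells in irradiation and in filtration by size together, as the parental cells were not filtered, and these cannot be told apart. The cells come from 1 line. In bulk libraries, fewer cells in a phase and less mRNA per cell cannot be told apart either, and values scaled to the size of a library do not give the mRNA of a whole giant cell.

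Library totals lay between 14835246 and 19906601 counts, so a floor of 3 counts corresponds to 0.150 to 0.207 CPM (counts scaled to a common library size, the unit used for levels below). Libraries of runs 4 and 5 stood apart from the others in all 4 conditions: on the second principal component, which held 16.5% of the variance, these 8 libraries lay at or above 13.4 and the other 16 at or below -4.10. Fold changes of the cyclin genes and of the list genes named in PGCC against UT are therefore also given for runs 1, 2, 3 and 6 and for runs 4 and 5. Of the epithelial markers, KRT8, KRT18 and KRT19 were at 50.5 CPM or more in every library, while EPCAM and CDH1 stayed at or below 6.49 CPM. KLK2, KLK3 and FOLH1, which mark prostate luminal cells, had no count in any library, TMPRSS2 had at most 2 and ACPP had at most 14, so the prostate origin of the line was not visible in these markers. Markers of other cell types, 8 of 9 found in the table, summed to 10.3 to 16.5 CPM in UT and 13.5 to 18.0 CPM in PGCC, with the largest part from COL1A1 (8.36 and 7.05 CPM on average). Of the 4 that passed the filter on low counts, 2 were called higher in PGCC, beside 23.1% of all 13812 genes tested. These were PTPRC (1.17 to 3.09 CPM, log2 fold change 1.39, edgeR adjusted p = 0.0164) and COL3A1 (1.93 to 3.90 CPM, log2 fold change 1.02, adjusted p = 0.00772). The median log2 fold change of the 4 was 1.10. The block added ACTA2 (1.13, adjusted p = 0.00475), and the T cell marker CD3E had no count in either group. By set of runs, COL3A1 gave log2 fold changes of 1.12 in runs 1, 2, 3 and 6 and 0.80 in runs 4 and 5. PTPRC gave 2.63 and 0.17, so its rise lay mainly in the first set. The part of these genes in the results was not tested. ASAH1, which encodes acid ceramidase, was at 65.1 CPM in parental cells and 49.1 CPM in PGCC (means, n = 6).

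In the genome build of the counts (hg19), CCND1 lies at chr11:69455855-69469242, CCND2 at chr12:4382938-4414516, CCND3 at chr6:41902671-42018095, CCNE1 at chr19:30302805-30315215, CCNA2 at chr4:122737599-122745087, CCNB1 at chr5:68462837-68474072, CCNB2 at chr15:59397277-59417244 and CCNF at chr16:2479395-2508855. The strand setting of the counting is not given in the sources used here, so reads from overlapping genes on the other strand cannot be told apart from those of a cyclin gene. CCNE2 is the member this touches most, since it overlaps INTS8 over 1977 bases and NDUFAF6 over 912 bases and had 4610 counts in all libraries against 19089 and 15171 for these neighbours. Other overlaps with protein-coding genes joined CCND1 to ORAOV1 (1399 bases) and CCNA2 to EXOSC9 (578 bases). The longest overlap was that of CCNB2 with RP11-59H7.3, over 4012 bases of the same strand, but this gene had only 152 counts in all libraries against 10979 for CCNB2. Noncoding genes and a pseudogene that overlap CCND2, CCND3, CCNE2 and CCNF had from 0 to 79 counts each.

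The 250 bases upstream of the start site are shown for the 4 genes whose mRNA was higher in PGCC and for CCNE1, whose mRNA was lower, because factors known to time cyclin genes bind there. The sequences are from RefSeq on GRCh38.p14, a later build than that of the counts, at chr4:121823884-121824133 (- strand) for CCNA2, chr5:69166900-69167149 (+ strand) for CCNB1, chr15:59104896-59105145 (+ strand) for CCNB2, chr16:2429197-2429446 (+ strand) for CCNF and chr19:29811741-29811990 (+ strand) for CCNE1. They are written 5′ to 3′ on the strand of the gene, and capitals mark exact matches on either strand to strings of 4 kinds. These are CCAAT (the NF-Y site) and TGACG (the core of a CRE, the site of CREB family factors). For the cell cycle homology region (CHR), bound by DREAM and MYB-containing complexes, only the forms TTTGAA and TTCGAA were sought. The E2F strings were TTTCCCGC, TTTGGCGC, TTTGCCGC and TTTCGCGC.
CCNA2: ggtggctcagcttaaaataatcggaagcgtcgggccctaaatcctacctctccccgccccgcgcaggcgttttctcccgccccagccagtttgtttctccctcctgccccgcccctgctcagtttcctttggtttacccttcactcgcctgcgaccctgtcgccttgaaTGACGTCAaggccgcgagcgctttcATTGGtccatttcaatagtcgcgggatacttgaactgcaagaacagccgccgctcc
CCNB1: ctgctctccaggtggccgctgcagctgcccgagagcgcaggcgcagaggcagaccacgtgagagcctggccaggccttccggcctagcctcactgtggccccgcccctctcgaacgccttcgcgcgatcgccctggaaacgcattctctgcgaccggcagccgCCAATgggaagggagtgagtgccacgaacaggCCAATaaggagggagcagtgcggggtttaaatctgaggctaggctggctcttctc
CCNB2: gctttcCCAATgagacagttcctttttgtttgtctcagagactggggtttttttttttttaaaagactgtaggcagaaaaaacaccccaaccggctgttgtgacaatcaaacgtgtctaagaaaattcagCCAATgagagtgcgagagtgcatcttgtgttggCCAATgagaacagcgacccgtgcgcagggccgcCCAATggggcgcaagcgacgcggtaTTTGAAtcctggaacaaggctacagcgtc
CCNF: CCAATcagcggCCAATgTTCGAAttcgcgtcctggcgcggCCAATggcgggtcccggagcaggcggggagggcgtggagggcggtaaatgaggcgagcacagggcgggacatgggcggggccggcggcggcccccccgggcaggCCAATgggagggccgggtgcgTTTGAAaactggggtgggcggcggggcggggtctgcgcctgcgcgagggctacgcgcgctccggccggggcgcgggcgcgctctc
CCNE1: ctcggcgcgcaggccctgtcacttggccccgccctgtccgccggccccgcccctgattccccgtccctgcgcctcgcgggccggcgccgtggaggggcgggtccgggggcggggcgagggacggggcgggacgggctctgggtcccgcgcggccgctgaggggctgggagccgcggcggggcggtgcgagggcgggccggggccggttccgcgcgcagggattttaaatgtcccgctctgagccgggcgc

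CCAAT was present once upstream of CCNA2, 2 times upstream of CCNB1 and 4 times upstream of both CCNB2 and CCNF, whereas 32% of all 35116 promoters in the RefSeq set held it at least once. Repeats were rarer in that set, with 9.53% of promoters holding 2 or more. A CHR string was found upstream of CCNB2, 29 to 24 bases before the start, and at 2 places upstream of CCNF, against 14.3% of all promoters, and 5.05% of promoters held both a CHR string and CCAAT. In CCNA2 the TGACG string was matched on both strands, so that the matches overlap in 1 stretch of capitals, and 21.2% of promoters held at least 1 match. No string of any of the 4 kinds lies in the CCNE1 window, and none of the E2F strings, which 2.79% of promoters held, lies in any of the windows shown. Of the 3 start sites listed for CCND3, 2 had a single CCAAT. The set matched 6 of the 9 members. Other forms of the CHR and of the E2F site were not sought, so a window without a match may still hold one. A match is only a match of letters, and these windows bear on no measured binding.

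Compared per length as RPKM, which is CPM divided by the listed length of the gene in kilobases, CCND1 was the most abundant member in all 4 conditions, at 113 ± 33.1 RPKM in parental cells and 89.7 ± 16.1 RPKM in PGCC (SD, n = 6). In parental cells CCND3 (28.1 ± 12.5 RPKM) and CCNB1 (22.0 ± 6.15 RPKM) followed, and their ranges overlapped. CCNF, CCNB2, CCNA2, CCNE2 and CCNE1 came next, with means between 6.68 and 4.15 RPKM, and each overlapped its neighbour in that order. The parental order itself differed by set of runs. CCND3 was above CCNB1 in parental runs 1, 2, 3 and 6. In parental runs 4 and 5 CCNB1 (23.4 and 29.6 RPKM) was above CCND3 (12.1 and 12.6 RPKM). There CCNE1 (1.05 and 1.23 RPKM) and CCNE2 (0.453 and 0.507 RPKM) lay below the other tested members. In PGCC the order of the means over all 6 runs was different. CCNB1 was second at 69.3 ± 8.16 RPKM and its range overlapped that of CCND1. CCND3, CCNB2 and CCNA2 followed at 32.8, 27.8 and 20.6 RPKM, CCNF lay at 13.9 RPKM, and CCNE2 (2.50 RPKM) and CCNE1 (0.965 RPKM) lay below all of them without overlap. Summed over the 9 genes, the level was 190.2 ± 44.5 RPKM in parental cells and 257 ± 16.3 RPKM in PGCC, and the part of it held by CCND1 was 59.1% and 34.7%.

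**Figure D1:**
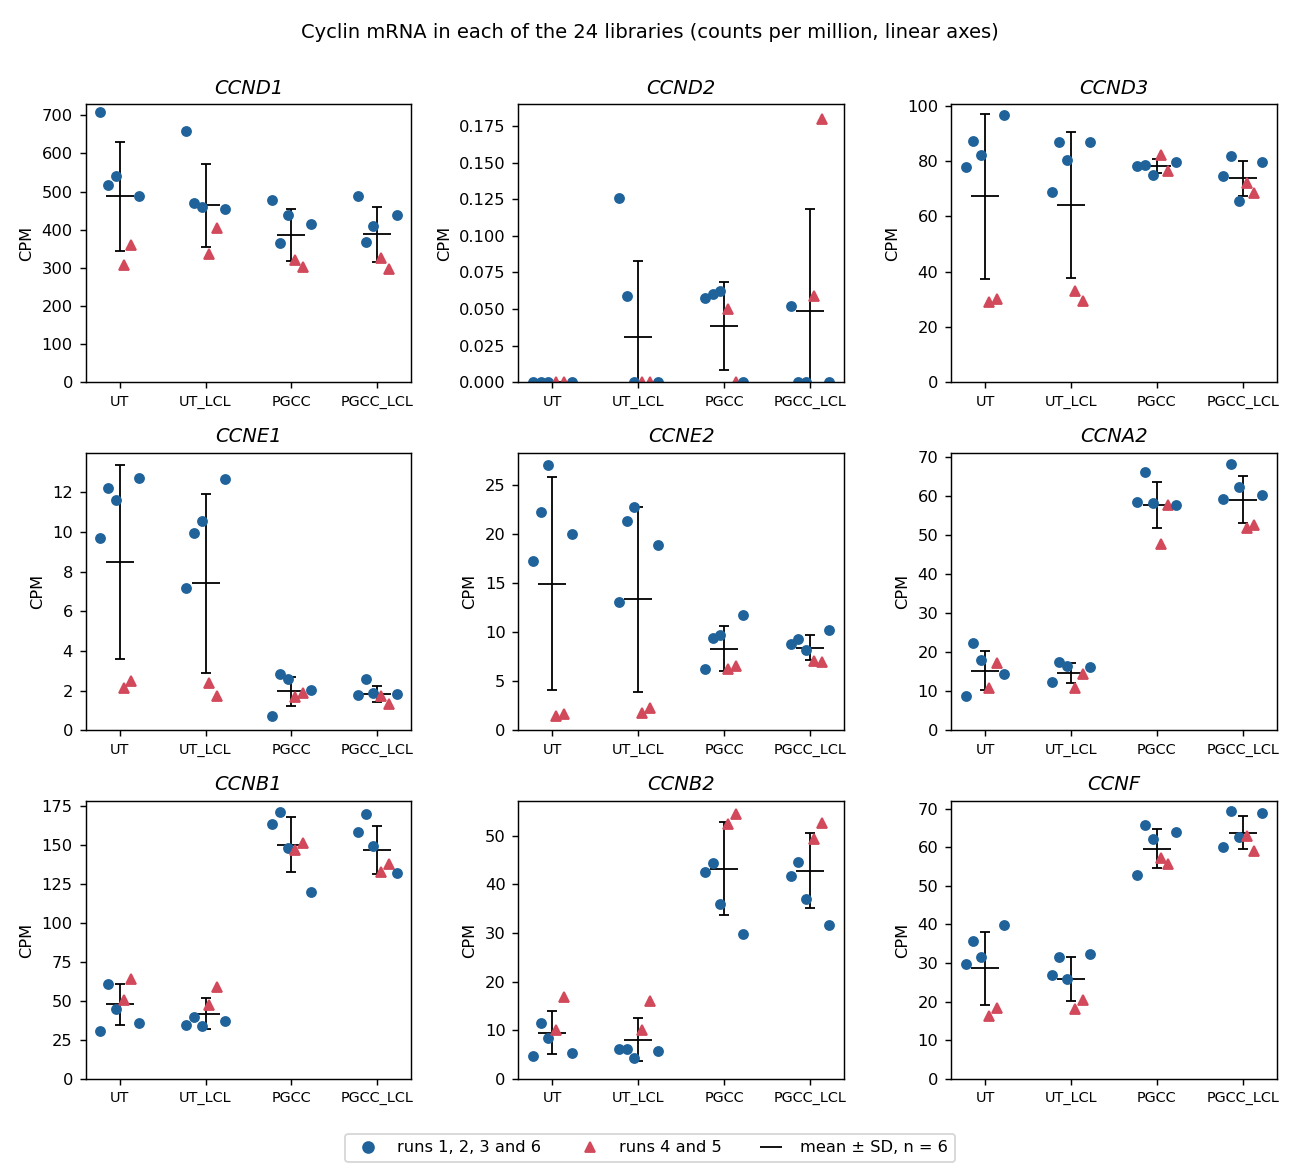
Level of each cyclin gene in the 24 libraries, in CPM on linear axes that start at 0 and differ between panels. Circles are libraries of runs 1, 2, 3 and 6, triangles those of runs 4 and 5, and bars give the mean ± SD of 6 libraries. CCNA2, CCNB1, CCNB2 and CCNF were higher in every PGCC library than in any parental library, while CCND3, CCNE1 and CCNE2 were low in the parental libraries of runs 4 and 5.

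The first question was how the cyclin genes differ between PGCC and parental cells. Of the 9 members 8 passed the filter on low counts, and 5 of these passed the test in PGCC against UT: CCNA2, CCNB1, CCNB2 and CCNF were higher and CCNE1 was lower (edgeR quasi-likelihood test, Benjamini-Hochberg adjusted p under 0.05). The same test called 47.4% of the 13812 genes tested, 23.1% as higher and 24.3% as lower. CCND1, CCND3 and CCNE2 did not pass. With the run as a block, CCND1 was called as well, as lower, and 56.2% of genes were called. In PGCC_LCL against UT_LCL, which uses the other 12 libraries from the same runs, the same 5 members were called in the same directions, beside 48.9% of the 13818 genes tested (25% higher and 23.9% lower), and the block again added CCND1, with 56.3% of genes called.

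Among the D-type cyclins, CCND1, the cyclin best known as a sensor of growth signals, had 306 CPM in the lowest, 504 CPM in the median and 708 CPM in the highest parental library. PGCC ranged from 301 to 477 CPM around a median of 389.6 CPM. The ranges overlapped, with the highest values in parental libraries of runs 1, 2, 3 and 6. CCND1 was lower in PGCC in 5 of 6 runs, by a log2 fold change of -0.32 (SE 0.18) that did not pass the edgeR test (adjusted p = 0.150) and passed it with the run as a block (-0.29, SE 0.08, adjusted p = 0.0122). In runs 1, 2, 3 and 6 alone the log2 fold change was -0.39 (SE 0.11, edgeR adjusted p = 0.00940), and in runs 4 and 5 it was -0.10 (SE 0.12, adjusted p = 0.514). With LCL521 in both arms CCND1 was lower in 6 of 6 runs, again with overlapping ranges (335 to 659.7 CPM in UT_LCL, 296 to 487 CPM in PGCC_LCL) and with a log2 fold change of -0.23 (SE 0.15, adjusted p = 0.213; block -0.22, SE 0.07, adjusted p = 0.0259).

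CCND2 was all but absent: 12 counts were found in the 24 libraries together, at most 3 in any of them and none in the 6 parental libraries. These values lie at or under the floor of 3 counts, so no fold change is given. CCND3, the third D-type gene, had a median of 80.1 CPM in parental cells and ranged from 28.9 to 97.0 CPM, whereas the 6 PGCC libraries lay within 75.1 to 82.4 CPM. Parental libraries of runs 4 and 5 were at 28.9 and 30.1 CPM and those of the other runs at 77.8 CPM or more, so the wide spread of this gene was a split between runs. Over all runs the log2 fold change was 0.23 (SE 0.26, adjusted p = 0.488). Runs 4 and 5 alone gave a rise of 1.43 (SE 0.11, edgeR adjusted p = 1.74e-05), and runs 1, 2, 3 and 6 gave -0.13 (SE 0.09, adjusted p = 0.227). With LCL521 the corresponding log2 fold changes were 1.18 (SE 0.11, adjusted p = 8.98e-06) and -0.07 (SE 0.10, adjusted p = 0.618).

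CCNE1, which encodes the E-type cyclin often amplified in tumours, was the member that fell. Its level was 2.15 CPM in the lowest, 10.6 CPM in the median and 12.7 CPM in the highest parental library, against 0.747, 1.96 and 2.84 CPM in PGCC. The groups overlapped because the parental libraries of runs 4 and 5, at 2.15 and 2.50 CPM, lay within the range of PGCC. CCNE1 was lower in PGCC in 6 of 6 runs, with a log2 fold change of -2.09 (SE 0.45, edgeR adjusted p = 0.00171), which is 0.235 times the parental level (95% interval 0.120 to 0.459). An exact permutation test on log2 CPM gave p = 0.0173 over all 924 divisions of the 12 libraries. By run the fall was unequal, at -2.47 (SE 0.28, adjusted p = 8.55e-06) in runs 1, 2, 3 and 6 and at -0.38 (SE 0.31, adjusted p = 0.338) in runs 4 and 5. With LCL521 the pooled log2 fold change was -1.97 (SE 0.42, adjusted p = 0.00150), made of -2.29 (SE 0.22) and -0.43 (SE 0.35) in the 2 sets of runs. Only 21 of the 13812 genes tested had a more negative log2 fold change than CCNE1 in PGCC against UT.

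CCNE2, the second E-type cyclin, went in opposite directions in the 2 sets of runs. In parental cells it was at 17.3 to 27.0 CPM in runs 1, 2, 3 and 6 and at 1.51 and 1.69 CPM in runs 4 and 5, where the 2 libraries held 26 counts or more, a 13.5-fold difference between the means. In PGCC the corresponding levels were 6.27 to 11.7 CPM and 6.26 and 6.55 CPM. The pooled log2 fold change of -0.83 (SE 0.56) did not pass the test (edgeR adjusted p = 0.238). Within runs 1, 2, 3 and 6 CCNE2 was lower in PGCC by a log2 fold change of -1.20 (SE 0.19, edgeR adjusted p = 0.000137), in 4 of 4 pairs, and within runs 4 and 5 it was higher by 2.00 (SE 0.26, edgeR adjusted p = 0.000257), in both pairs. The LCL521-treated libraries gave -1.03 (SE 0.17, adjusted p = 0.000252) and 1.81 (SE 0.25, adjusted p = 0.000164). Opposite directions in the 2 sets of runs were found in 9.62% of all genes tested in PGCC against UT and in 7.48% in PGCC_LCL against UT_LCL, and the difference between the sets was not tested. Of the overlapping genes, INTS8 gave log2 fold changes of 0.28 and 0.42 and NDUFAF6 of -0.23 and -0.12 in PGCC against UT, in runs 1, 2, 3 and 6 and in runs 4 and 5. With LCL521 in both arms these were 0.20 and 0.37 for INTS8 and -0.29 and 0.0038 for NDUFAF6. Both were thus more positive in runs 4 and 5, as CCNE2 was, and their part in its values was not tested.

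**Figure D2:**
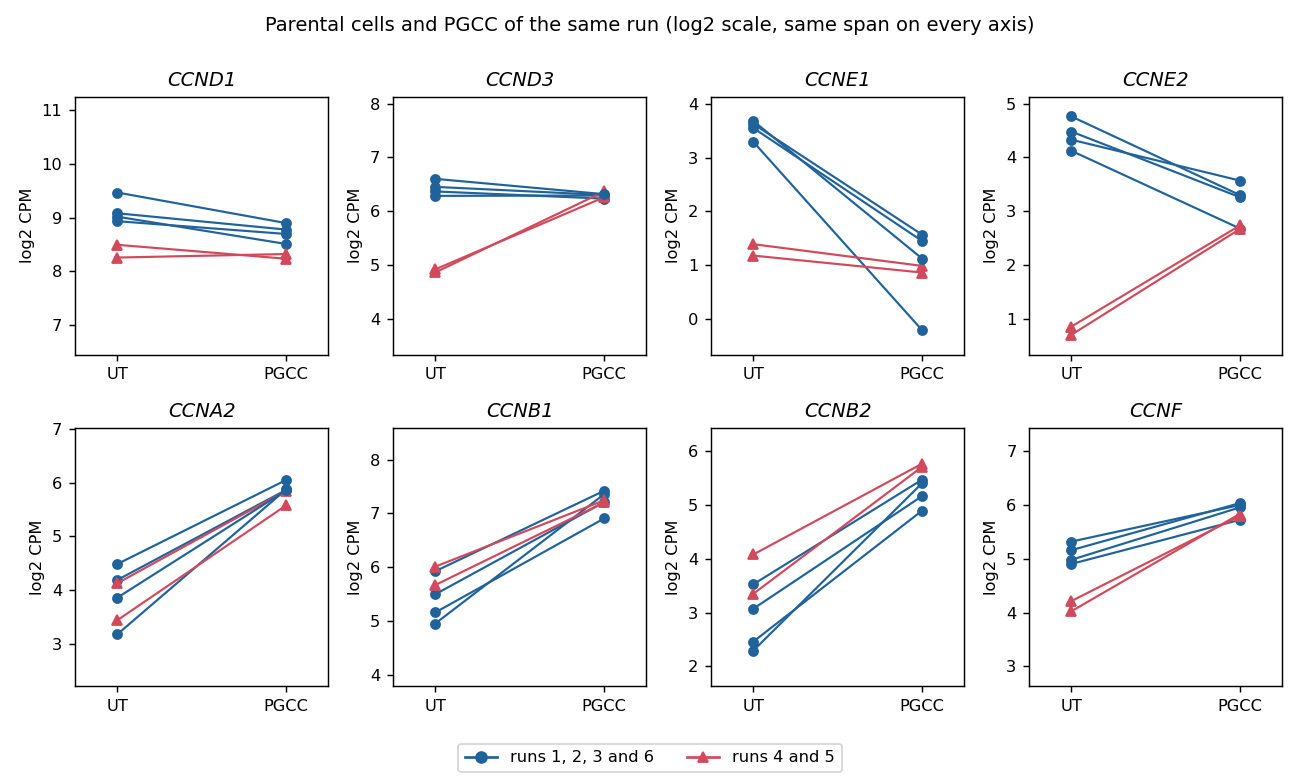
Parental cells and PGCC of the same run joined by a line, on a log2 CPM axis that spans the same range in every panel. Circles are runs 1, 2, 3 and 6 and triangles are runs 4 and 5. The lines of CCNA2, CCNB1, CCNB2 and CCNF rose in all 6 runs, those of CCNE1 went down in all 6, and those of CCNE2 went down in 4 and up in 2.

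Cyclin A2, the partner of CDK2 and CDK1 in S phase and G2, gave one of the clearest differences. Parental libraries ranged from 8.93 to 22.3 CPM of CCNA2 with a median of 15.9 CPM, and PGCC ranged from 47.6 to 66.1 CPM with a median of 57.9 CPM. Every PGCC library was above every parental library. CCNA2 was 3.79-fold higher in PGCC (95% interval 2.85 to 5.02), a log2 fold change of 1.92 (SE 0.19, edgeR adjusted p = 2.52e-06). Both sets of runs gave nearly the same value, 1.94 (SE 0.20) in runs 1, 2, 3 and 6 and 1.90 (SE 0.21) in runs 4 and 5. With LCL521 in both arms it was 2.04 (SE 0.13, adjusted p = 2.14e-08), with 10.9 to 17.4 CPM in UT_LCL and 51.8 to 68.0 CPM in PGCC_LCL.

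The B-type cyclins rose together. CCNB1, the main mitotic cyclin, had 30.8 CPM in the lowest, 47.8 CPM in the median and 64.3 CPM in the highest parental library, and 119.8, 149.7 and 171 CPM in PGCC. CCNB2, whose product is associated with the Golgi, had 4.79, 9.20 and 16.8 CPM in parental cells and 29.8, 43.4 and 54.6 CPM in PGCC. Neither gene overlapped between the groups. The log2 fold change of CCNB1 was 1.66 (SE 0.17, edgeR adjusted p = 2.91e-06), or 3.15-fold (95% interval 2.46 to 4.04). That of CCNB2 was 2.19 (SE 0.27, edgeR adjusted p = 1.82e-05), or 4.57-fold (95% interval 3.06 to 6.83), and only 413 of 13812 genes had a larger one.

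By set of runs, CCNB1 gave 1.83 (SE 0.18) in runs 1, 2, 3 and 6 and 1.38 (SE 0.13) in runs 4 and 5. For CCNB2 the values were 2.36 (SE 0.23) and 1.99 (SE 0.20), and all 4 passed the test. Unlike CCND3 and the E-type genes, CCNB1 and CCNB2 were higher in the parental libraries of runs 4 and 5 than in the mean of the others, 1.34-fold and 1.80-fold. In PGCC the corresponding ratio was 0.990 for CCNB1 and 1.40 for CCNB2. With LCL521 in both arms the log2 fold changes were 1.83 (SE 0.14) for CCNB1 and 2.43 (SE 0.27) for CCNB2, with 33.6 to 59.0 CPM against 132 to 170.3 CPM and 4.37 to 16.1 CPM against 31.7 to 52.6 CPM.

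CCNF, which peaks in G2 and whose product limits the accumulation of several S and G2 phase proteins, had 16.2, 30.7 and 39.9 CPM in the lowest, median and highest parental library. In PGCC these values were 52.9, 59.7 and 65.7 CPM, so the groups did not overlap. The log2 fold change was 1.07 (SE 0.19, edgeR adjusted p = 0.000402), or 2.10-fold (95% interval 1.58 to 2.79). It was 0.86 (SE 0.11) in runs 1, 2, 3 and 6 and 1.71 (SE 0.12) in runs 4 and 5, where the parental level was 0.506 times that of the other runs. With LCL521 in both arms the pooled log2 fold change was 1.33 (SE 0.13, adjusted p = 1.89e-06).

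The 2 groups did not overlap for 4 of the 8 tested members (CCNA2, CCNB1, CCNB2 and CCNF) in PGCC against UT, beside 26.8% of all genes tested, nor for the same 4 in PGCC_LCL against UT_LCL, beside 28.1%. For each of these 4 genes in both comparisons the exact permutation test gave p = 0.00216 and the exact paired test p = 0.03125, which are the smallest values that 924 divisions and 64 sign changes can give. PGCC also varied less between runs than parental cells did for all 8 tested members, and the share of all genes that did so was not counted. The SD of log2 CPM of CCNE2 was 1.90 in parental cells and 0.39 in PGCC, that of CCND3 was 0.80 and 0.05, that of CCNF 0.53 and 0.12, and that of CCNE1 1.17 and 0.63. These SDs include the split between sets of runs, and within runs 1, 2, 3 and 6 the E-type genes spanned more in PGCC. There CCNE1 spanned 3.29 to 3.68 log2 CPM in UT and -0.21 to 1.57 in PGCC. CCNE2 spanned 4.12 to 4.76 in UT and 2.67 to 3.57 in PGCC. The other tested members spanned less in PGCC in these runs too. The spreads were not compared by a test.

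**Figure D3:**
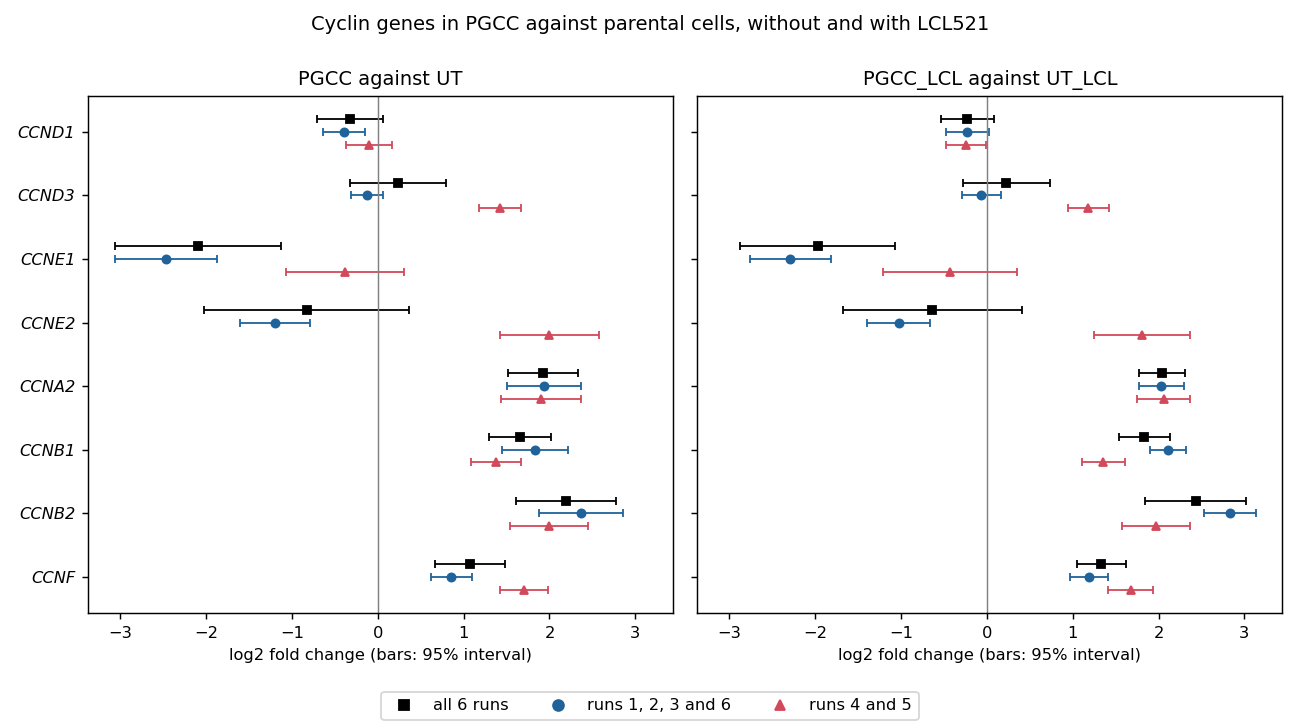
Log2 fold changes of the 8 tested cyclin genes in PGCC against UT and in PGCC_LCL against UT_LCL, with 95% intervals. Squares are all 6 runs, circles runs 1, 2, 3 and 6, and triangles runs 4 and 5. CCNE2 lies left of 0 in the 4 runs and right of 0 in the 2 runs, and CCNA2, CCNB1, CCNB2 and CCNF lie right of 0 throughout.

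Within each family the share of mRNA that each paralog supplied was computed from RPKM. CCND1 supplied 80.8 ± 5.27% of D-type cyclin mRNA in parental cells and 72.8 ± 3.82% in PGCC (SD, n = 6), and CCND3 nearly all of the rest, 19.2% and 27.2%. In runs 1, 2, 3 and 6 the ranges of the CCND1 share overlapped, with 73.7 to 83.5% in parental cells and 72.0 to 77.2% in PGCC. In run 6 this share was slightly higher in PGCC (73.7% and 74.3%). In runs 4 and 5 it was 85.5 to 86.9% in parental cells and 68.4 to 68.6% in PGCC. CCNE1 supplied 54.6 ± 12.5% of E-type mRNA in parental cells, with 41.2 to 50.9% in runs 1, 2, 3 and 6 and 69.9 to 70.7% in runs 4 and 5. In PGCC the share of CCNE1 was 27.4 ± 6.64% (16.3 to 32.9%), below every parental library in both sets of runs. CCNB1 supplied 79.2 ± 3.35% of B-type mRNA in parental cells and 71.5 ± 3.80% in PGCC. Means with LCL521 were within 3 percentage points of those without it for each of these 3 genes. No test was run on the shares.

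**Figure D4:**
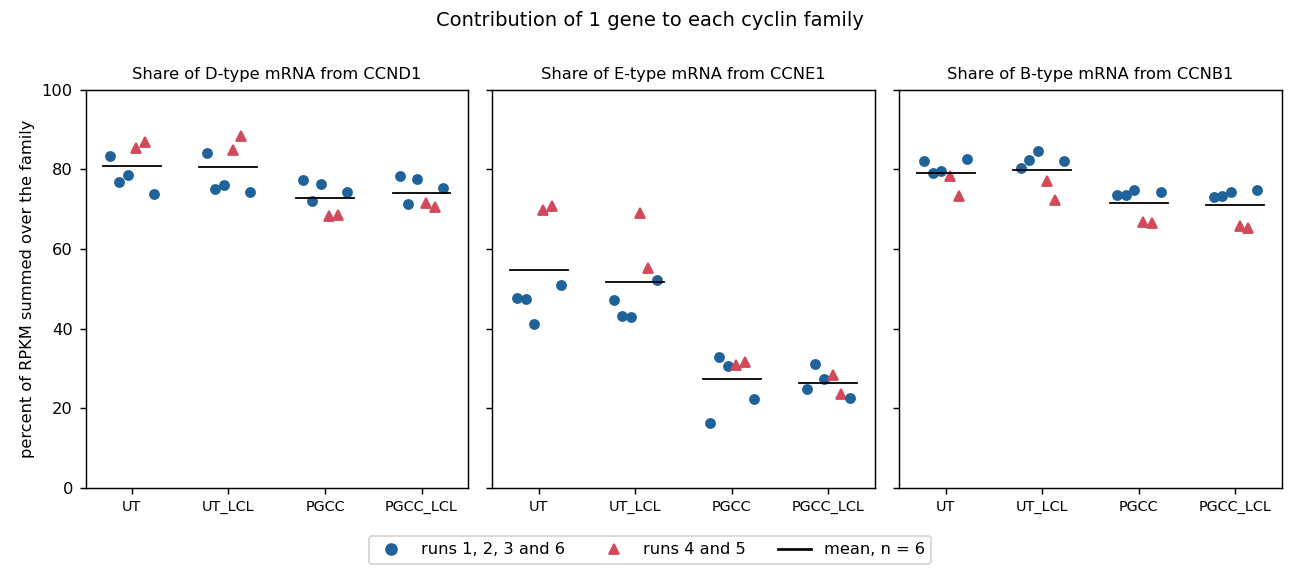
Percent of the RPKM of each cyclin family that came from CCND1, CCNE1 and CCNB1 in each library, by condition, with circles for runs 1, 2, 3 and 6, triangles for runs 4 and 5 and lines for the means. The share of CCNE1 was 41.2 to 70.7% in parental cells and 16.3 to 32.9% in PGCC.

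The genes that work with the cyclins were described from lists. Their counts without the block stand beside 23.1% of all genes called higher and 24.3% called lower in PGCC against UT. Those with the block stand beside 3851 genes called higher and 3914 called lower of the 13812 tested. For the genes named, the log2 fold change in runs 1, 2, 3 and 6 and then that in runs 4 and 5 follow the pooled values. Of the CDK partners, 8 of 9 were tested in PGCC against UT, with 5 higher and 2 lower (5 and 1 with the block) and a median log2 fold change of 0.68, beside -0.03 over all genes. CDK1, the catalytic partner of the B-type cyclins, rose from 53.4 ± 20.3 to 263 ± 33.4 CPM, a log2 fold change of 2.30 (SE 0.23, edgeR adjusted p = 2.55e-06), with 2.52 and 1.98 in the 2 sets of runs. CDK2, the partner of the E- and A-type cyclins, rose by 1.29 (SE 0.18), with 0.96 and 2.06 by set of runs. CDK4, a partner of the D-type cyclins, fell by 0.59 on the log2 scale (SE 0.09, adjusted p = 7.02e-05), from 97.6 to 64.5 CPM (-0.69 and -0.39). MNAT1, an assembly factor of the CDK-activating kinase, had a log2 fold change of -0.28 that was lost with the block (adjusted p = 0.0330, and 0.0529 with the block), made of -0.17 and -0.46.

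Activators and brakes of cyclin B-CDK1 had 10 of 12 genes higher and none lower, with a median log2 fold change of 1.67. The largest rises were those of PKMYT1, the kinase that holds CDK1 inactive at membranes, at 2.42 (SE 0.21, from 11.1 to 59.1 CPM, 2.18 and 2.99 by set of runs), and of MASTL, the Greatwall kinase that promotes mitosis, at 2.41 (SE 0.16, from 5.75 to 30.4 CPM, 2.26 and 2.75). The list thus held rises of both a brake and an activator. CDC25A and WEE1 were the 2 members that did not pass in the pooled test, and both split by run, with 0.21 and 2.45 for CDC25A and -0.09 and 1.12 for WEE1.

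Of the CDK inhibitors, 7 of 8 were tested, with 3 higher and 1 lower. CDKN1A, which encodes p21 and is induced by p53 after DNA damage, rose by 3.74 (SE 0.37, edgeR adjusted p = 2.26e-06), from 10.2 ± 3.79 to 135 ± 58.8 CPM (3.80 and 3.44). CDKN3, a phosphatase gene that peaks in mitosis, rose by 2.27 (SE 0.21, 2.49 and 1.99), and CDKN2A fell by 0.91 on the log2 scale (SE 0.11), from 304 to 160.6 CPM (-0.78 and -1.13). The third rise was that of CDKN2D, at 1.39 (1.41 and 1.37).

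Genes of cyclin degradation had 6 higher and 6 lower of 23 tested (6 and 8 with the block) and a median of 0.01, shares close to the 23.1% and 24.3% of all genes. CDC20, the mitotic activator of the anaphase-promoting complex, rose by 2.13 (SE 0.12) from 60.2 to 263 CPM (2.08 and 2.24), and UBE2C, the E2 enzyme of that complex, rose by 1.95 (SE 0.22, 2.22 and 1.60). USP28 fell by 0.58 on the log2 scale (-0.44 and -0.79) and FBXO31 by 0.46 (-0.38 and -0.64). FBXO31 is a receptor for cyclin D1 degradation after DNA damage.

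Regulators of cyclin gene transcription had 10 higher and 6 lower of 26 tested (11 and 9 with the block), with a median of 0.19. MYBL2, the B-MYB subunit of the complex that activates G2 and mitosis genes, rose by 3.20 (SE 0.20), from 24.3 ± 7.91 to 223 ± 20.2 CPM (3.18 and 3.28). FOXM1, its partner in that programme, rose by 2.10 (SE 0.15), from 26.2 to 112 CPM (2.20 and 1.96). E2F5 fell by 1.14 (SE 0.12, -1.08 and -1.22) and MYC, an activator of growth genes, by 0.89 (SE 0.15, -0.67 and -1.19), from 1225 to 659 CPM, both on the log2 scale.

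Of the other cyclin genes, 16 of 17 were tested, with 3 higher and 5 lower (3 and 7 with the block) and a median of -0.18. CCNYL1 rose by 1.11 (SE 0.13, 0.943 and 1.502) and CCNK, a transcriptional cyclin, by 0.31 (SE 0.07, 0.32 and 0.31). CCNY fell by 0.66 on the log2 scale (-0.59 and -0.77) and CCNJ by 0.58 (-0.52 and -0.73). In PGCC_LCL against UT_LCL the counts of the 6 lists without the block differed from these by at most 1 in either direction. With the block they also did, except that 7 regulators of transcription were lower in place of 9.

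The second question was whether LCL521 altered the cyclin genes within 5 hours. No member passed the test in UT_LCL against UT, where no gene of 13277 did (0%; 71 genes had an unadjusted p under 0.05, and DESeq2 also called 0), nor in PGCC_LCL against PGCC, where 1 of 14151 genes did (0.00707%). That gene was INSIG1, an inhibitor of cholesterol synthesis, at 52.6 to 69.3 CPM in PGCC and 77.6 to 112 CPM in PGCC_LCL, a log2 fold change of 0.67 (edgeR adjusted p = 0.0395), named after its values were seen. With the run as a block, 115 genes (0.866%) and 234 genes (1.65%) were called, and again no cyclin gene was among them. The groups overlapped for all 8 members in both comparisons, in which 0.0301% and 0.0848% of genes did not overlap.

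In parental cells the fitted log2 fold changes of the 8 members lay between -0.22 (CCNB2) and -0.06 (CCND3), with edgeR adjusted p = 1.00 for each. CCND1, CCNE2 and CCNF moved one way in runs 1, 2, 3 and 6 and the other way in runs 4 and 5, as 4.73% of genes did. The 95% interval of the ratio of UT_LCL to UT was 0.700 to 1.32 for CCNA2, 0.658 to 1.18 for CCNB1 and 0.501 to 1.46 for CCNB2. For CCND1 it was 0.718 to 1.28, and for the E-type genes it was wider, 0.394 to 1.98 for CCNE1 and 0.299 to 2.73 for CCNE2. With the block, which removes the differences between runs, the intervals narrowed to 0.850 to 1.12 for CCNA2, 0.788 to 1.00 for CCNB1, 0.903 to 1.04 for CCND1 and 0.806 to 1.04 for CCNE2.

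In PGCC the log2 fold changes with LCL521 lay between -0.09 (CCND3) and 0.10 (CCNF). The interval of the ratio was 0.904 to 1.17 for CCNA2, 0.864 to 1.11 for CCNB1, 0.799 to 1.23 for CCNB2 and 0.826 to 1.22 for CCND1. CCNF was 52.9 to 65.7 CPM without and 59.0 to 69.3 CPM with the inhibitor, higher in 6 of 6 runs with overlapping ranges. Its log2 fold change with the block was 0.10 (SE 0.04, adjusted p = 0.230), and that of CCND3 was -0.09 (SE 0.04, adjusted p = 0.324), so neither passed. In each of the 7 tested members other than CCNF, at least 1 run went against the rest.

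The interaction of LCL521 with population, fitted on all 24 libraries, was not past the threshold for any member or for any of the 14555 genes tested (0%; 60 genes had an unadjusted p under 0.05, and the block gave 0). Its largest value among the members was 0.24 for CCNF on the log2 scale (SE 0.24, edgeR adjusted p = 1.00), and its 95% interval as a ratio was 0.840 to 1.67. For CCNE2 that interval was 0.365 to 3.52, so effects of that size could not be told from 0 there.

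**Figure D5:**
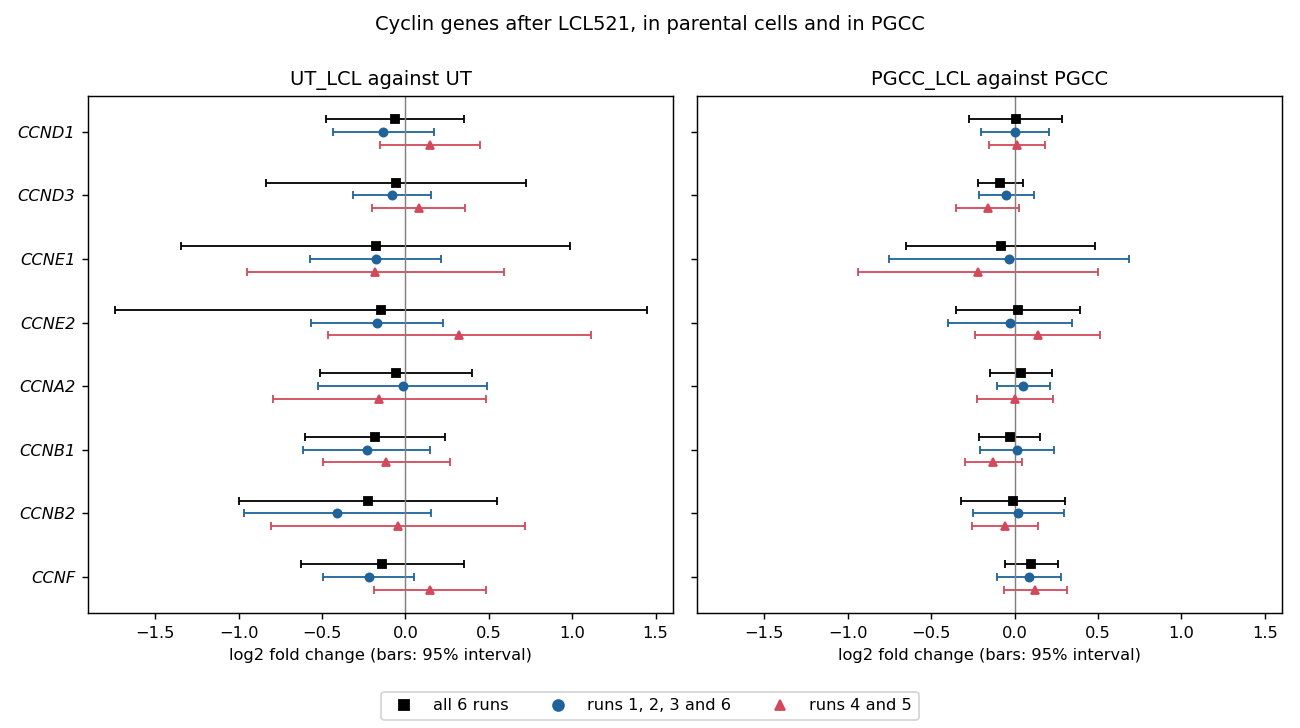
Log2 fold changes of the 8 tested cyclin genes after LCL521 in parental cells and in PGCC, with 95% intervals, for all 6 runs (squares), runs 1, 2, 3 and 6 (circles) and runs 4 and 5 (triangles). Every interval in these panels includes 0, and the widest, that of CCNE2 in parental cells, runs from -1.74 to 1.45.

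None of the 6 lists had a gene that passed the test after LCL521 in either population. With the block 4 genes did, named here because they are few, beside 0.866% of all genes in parental cells and 1.65% in PGCC. In parental cells this was FOSL1, 1 of 26 regulators of transcription tested, at -0.24 on the log2 scale. In PGCC, 1 of 16 other cyclin genes passed, CCNG2 (0.39). So did CDKN2B (0.23), 1 of 7 CDK inhibitors, and CDC25B (0.16), 1 of 12 activators and brakes. All 3 were higher with the inhibitor.

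The genes whose profiles were most like each cyclin gene were ranked by Pearson's r of log2 CPM over the 24 libraries, after the means of conditions and of runs had been removed, among 10655 genes. All points share libraries, depth and the split between sets of runs, so r is a description. CCNE2 was nearest to CDC25A (r = 0.98), a phosphatase gene that activates CDK2, and METAP1 (0.97). CCND3 was nearest to THEM6 and to CDT1, a replication licensing factor (0.99 for each). CCNB1 was nearest to CDCA8 and BUB1 (0.97 for each) and CCNB2 to CDCA8 (0.96) and SHCBP1 (0.94), where CDCA8 and BUB1 encode proteins of mitotic chromosome segregation. CCNA2 was nearest to PHF19 (0.89) and CDC20 (0.87), CCNF to GLTPD1 and ELFN1 (0.96 for each), and CCND1 to WDR82 (0.86) and CPSF6 (0.84). CCNE1 and CCND2 fell below the minimum level for this ranking. Between members, the highest values were those of CCND3 with CCNE2 (r = 0.97) and of CCNB1 with CCNB2 (r = 0.94), while CCNB1 with CCNE2 gave -0.69.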

How the data were processed

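RNA-seq libraries of PPC1 cells were grouped by their labels into 4 conditions of 6, and libraries with the same number were harvested together. For each library the authors deposited raw read counts per gene, not normalized. Per the labels, CASAVA, STAR, HTSeq and DESeq2 were used on genome build hg19, and the supplementary methods describe paired-end reads aligned by STAR and counted by HTSeq. The annotation release and strand setting are not given in the sources used here. Gene lengths were taken as listed in the table.

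Genes were filtered with filterByExpr (minimum count 10, minimum total 15), scaled by TMM and tested with edgeR 4.0.16 (quasi-likelihood test, 12 libraries for a comparison of conditions and all 24 for the interaction) in R 4.3.3, with Benjamini-Hochberg adjustment over all genes tested and a threshold of 0.05. SE is the size of the log2 fold change over the square root of F, and intervals are at 95%. CPM and RPKM use TMM over all libraries, and log2 CPM carries a prior count of 2. Exact permutation tests are two-sided. Alternatives were other scalings, DESeq2 1.42.0, limma-voom (limma 3.58.1), other filters, 1 fit over all libraries, each run left out, both sets of runs alone, and the run as a block. Fits were tested on simulated data. Libraries of 1 condition differed by more than sampling noise (chi-square per degree of freedom of 5.05 or more in 60 pairs), so none was counted as a duplicate.

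The numbers pair the libraries, since the design text says that all conditions were harvested in parallel in each run. Deviations from condition means of same-numbered libraries correlated across genes with r of at least 0.24 (PGCC against UT), 0.17 (PGCC_LCL against UT_LCL), 0.46 (UT_LCL against UT) and 0.39 (PGCC_LCL against PGCC). The main fits have no block because the study's methods name none.

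All 9 members are named in every comparison. Of each list, the 2 largest rises and 2 largest falls among called genes with mean log2 CPM of at least 2 in PGCC against UT are named, and for each member with that level the 2 most alike genes. Other names were chosen after values were seen. The members and lists were chosen with earlier results of these data known. For CKS1B and RBL1, listed in more than 1 row, the row with the most counts was used. Promoters are from RefSeq (GRCh38.p14). Protein sequences were not used here. Some members of the marker lists are not reported here.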

Additional observations from a re-analysis of the deposited data

Results flagged for a closer look

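Among the cyclin genes, 5 results had every pair of runs 1, 2, 3 and 6 on one side of 0 and both pairs of runs 4 and 5 on the other. None of these differences was tested. In PGCC against UT the mean difference of CCNE2 within a run was -1.23 on the log2 scale in runs 1, 2, 3 and 6 and 1.93 in runs 4 and 5. With LCL521 in both arms it was -1.02 and 1.76. In UT_LCL against UT, where 4.73% of all genes showed such a split, it was found for CCND1 (-0.15 and 0.15), CCNE2 (-0.19 and 0.30) and CCNF (-0.23 and 0.15), none of which passed the edgeR test in either set of runs.

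No library stood apart within its condition for any tested member by Dixon's criterion, in 32 groups of 6 libraries. Chance alone would be expected to give about 1 in 20. The criterion asks whether 1 extreme library lies apart, so it cannot mark 2 libraries that lie apart together. This was the case for CCNE2 in UT, with 1.51 and 1.69 CPM in runs 4 and 5 and 17.3 CPM or more in the other runs.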

How the results depend on the processing

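The calls of CCNA2, CCNB1, CCNB2 and CCNF in both PGCC comparisons kept their direction and passed the test under every alternative run, and those of CCNE1 under all but runs 4 and 5 alone (-0.38 without and -0.43 with LCL521). The main count of 5 cyclin genes called ranged from 5 to 7 (PGCC against UT) and from 5 to 6 (PGCC_LCL against UT_LCL). With each run left out it stayed at 5. Scaling by library totals turned 3186 higher and 3355 lower genes in PGCC against UT into 3820 and 2521, and the median over all genes from -0.028 to 0.066 on the log2 scale. No filter on low counts left 25.8% of 29759 genes called there. The block changed no call of a member other than CCND1.

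Directions of values that had not passed the test turned as follows, and the cause was not tested. In runs 1, 2, 3 and 6 alone CCND3 was -0.13 (PGCC against UT) and -0.067 (PGCC_LCL against UT_LCL), and in PGCC with LCL521 CCNE2 was -0.029, CCNB1 0.015 and CCNB2 0.023. Runs 4 and 5 alone gave CCNE2 2.00 and 1.81 in the PGCC comparisons, and in UT_LCL against UT CCND1 0.15, CCND3 0.079, CCNE2 0.32 and CCNF 0.15. For the interaction they gave CCND1 -0.13, CCNE1 -0.034, CCNE2 -0.18, CCNB1 -0.0079, CCNB2 -0.0055 and CCNF -0.021, and the other runs gave CCND3 0.043. Under limma-voom CCNE1 in PGCC with LCL521 was 0.013.

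Leaving out 1 run gave ranges across 0 for CCNA2 in UT_LCL against UT (-0.13 to 0.020). In PGCC_LCL against PGCC they did so for CCND1 (-0.0018 to 0.033), CCNE1 (-0.23 to 0.0084), CCNE2 (-0.060 to 0.092) and CCNB2 (-0.016 to 0.0089). For the interaction this held for CCNE1 (-0.10 to 0.21) and CCND3 (-0.068 to 0.019).

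Genes called numbered 115 with the block in UT_LCL against UT, where the main count was 0. In PGCC_LCL against PGCC, with a main count of 1, they numbered 6 by DESeq2, 234 with the block, 0 by limma-voom, 0 in 1 fit of all libraries, 0 in either set of runs alone and 0 to 1 with a run left out (0 without run 1, 3, 4, 5 or 6). Shares from counts without gene length were 88.3% (UT), 88.0% (UT_LCL), 82.8% (PGCC) and 83.7% (PGCC_LCL) for CCND1, 11.7%, 11.97%, 17.2% and 16.3% for CCND3, 84.1%, 84.6%, 77.8% and 77.4% for CCNB1, and 40.0% (UT_LCL), 18.9% (PGCC) and 18.0% (PGCC_LCL) for CCNE1, in each case moved by more than 1 SD because the paralogs differ in length.

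Depth limited CCND2, with at most 3 counts in a library, and CCNE1 in PGCC, with 13 to 47 counts.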

Other observations

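Some genes of the lists had, as CCNE2 did, a more positive log2 fold change in runs 4 and 5 than in the other runs. Not all of them changed sign as CCNE2 did, and the genes named here were chosen after their values were seen. In PGCC against UT, E2F1, an activator of S phase genes, had a log2 fold change of 0.95 in runs 1, 2, 3 and 6 and of 3.44 in runs 4 and 5. The corresponding values were 0.03 and 3.68 for E2F2 and -0.67 and 0.66 for SKP2, which encodes a receptor for the degradation of p27. CCNA1, the second A-type cyclin gene, went the other way, with 2.49 and 0.0057. So did CDKN2B, of the CDK inhibitor list, which changed sign, with 1.01 and -1.92. The differences between the sets of runs were not tested.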
